A study of Mus musculus with 15 samples.

Results

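The miR-10 family was examined in small-RNA sequencing of mouse Kupffer cells, which are macrophages that live in the liver sinusoids, through its members miR-10a, miR-10b, miR-99a and miR-100. All rows of the deposited tables whose names start with one of these names were taken, whatever their values, which gave 7 of the 248 mature miRNAs listed. They were both arms of the miR-10a, miR-99a and miR-100 hairpins and the 5p arm of miR-10b. Values were reads per 1000000 reads (RPM), a unit inferred from the deposited values. The cells came from obese, leptin-deficient ob/ob mice at 9 weeks of age (n = 3) and at 14 weeks (n = 4), and from wild-type C57BL/6J mice (wt) at 9 weeks (n = 4) and at 14 weeks (n = 4). The sources used here do not give treatment, diet, sex or the genetic background of the ob/ob mice. Nor do the labels state whether each library is a different animal. The p-values therefore cover only the spread between these libraries, part of which may be technical.

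A miRNA hairpin is cut into a duplex, of which the guide strand is kept by the Argonaute protein and the passenger strand is mostly degraded. In this family the 5p arm is the usual guide. Guides pair with messenger RNAs through the seed, bases 2 to 8, and lower the output of those messengers. miR-10a and miR-10b lie inside the Hox gene clusters, and miR-10a is known in endothelial cells for restraining NF-κB signalling. miR-10b is best known from human breast cancer cells, where it promotes invasion. miR-99a and miR-100, each in a cluster with a let-7 and a miR-125 gene, are known from human cells for repressing the kinase MTOR.

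The mature sequences are shown because they divide the family into 2 targeting groups and because members within a group are nearly identical. They are given 5′ to 3′ from RefSeq (build GRCm38.p6), with the seed in capitals.
miR-10a-5p: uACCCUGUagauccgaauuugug
miR-10b-5p: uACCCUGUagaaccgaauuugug
miR-99a-5p: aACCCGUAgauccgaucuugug
miR-100-5p: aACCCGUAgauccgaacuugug
miR-10a-3p: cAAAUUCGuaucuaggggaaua
miR-99a-3p: cAAGCUCGuuucuaugggucu
miR-100-3p: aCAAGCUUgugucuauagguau
miR-10a-5p and miR-10b-5p shared the seed ACCCUGU and differed by a single substitution, U12A, counted from 1 at the 5′ end of miR-10a-5p. miR-99a-5p and miR-100-5p shared the seed ACCCGUA and differed by U16A, counted from the 5′ end of miR-99a-5p. miR-10a-5p and miR-100-5p also had the run GUAGAUCCGAA in common, which starts at base 7 of miR-10a-5p and at base 6 of miR-100-5p and so takes in the end of both seeds. Each of the 3 passenger arms had a seed of its own. No other listed miRNA with a RefSeq mature sequence carried any of these seeds, and 218 of the 248 listed miRNAs had such a sequence. The sources used here do not say whether the authors' counting allowed mismatches, so the split of reads within each nearly identical pair is uncertain.

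The Mir10a gene lies on the plus strand at chr11:96317165-96317274 (GRCm38), 993 bases upstream of Hoxb4. Mir10b lies at chr2:74726070-74726137 on the plus strand, within the annotated spans of Hoxd3 and Hoxd4 and in no exon of either. Mir99a lies at chr16:77598936-77599000 on the plus strand, within the span of its host transcript Mir99ahg, 657 bases from Mirlet7c-1 and 47273 bases from Mir125b-2. Mir100 lies at chr9:41531425-41531504 on the plus strand, within the span of 3110039I08Rik, 5212 bases from Mirlet7a-2 and 50422 bases from Mir125b-1. It also falls inside an exon of Gm48742, a long non-coding RNA on the opposite strand. The Mir10a and Mir100 hairpins are shown with both arms in capitals, since their 3p arms were the members that passed the test at 9 weeks.
Mir10a: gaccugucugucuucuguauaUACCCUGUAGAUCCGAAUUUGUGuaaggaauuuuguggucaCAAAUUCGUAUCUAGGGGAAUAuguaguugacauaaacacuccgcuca
Mir100: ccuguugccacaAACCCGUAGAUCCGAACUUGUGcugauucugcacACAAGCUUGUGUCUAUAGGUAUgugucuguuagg

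Read from the smallest step between low values, the libraries held 9.08 to 98.1 M reads (M, 1000000). Lane 2 held all libraries of 9 weeks. At 14 weeks each genotype had replicates 1 and 2 in lane 1, and its other replicates in lane 2. The wt library of replicate 1 at 14 weeks stood apart, with the lowest depth and a sum over the listed miRNAs of 147387 RPM, against 230785 to 358621 RPM in the other libraries. Results that rest on it are given with and without it. Markers of other liver cells were present in every group. The summed endothelial miR-126a arms ranged from 18455 to 45923 RPM in ob/ob and 42296 to 59286 RPM in wt at 9 weeks, and from 33631 to 55779 RPM in ob/ob and 10833 to 63153 RPM in wt at 14 weeks. They exceeded the 3 measured myeloid markers, miR-142a-5p, miR-142a-3p and miR-511-3p, whose sums lay between 1833 and 4465 RPM. Among these, miR-142a-3p was at 0 in 5 of the 15 libraries, and the endothelial miR-126a-3p was at 0 in 1. The 4 hepatocyte markers summed to 3966 to 5524 RPM in ob/ob and 1100 to 2222 RPM in wt at 9 weeks, and to 3169 to 6899 RPM in ob/ob and 1099 to 1689 RPM in wt at 14 weeks. Most of these sums was miR-192-5p, and the markers did not all differ alike. miR-122-5p averaged 166 RPM in ob/ob and 46.3 RPM in wt at 9 weeks, and 54.9 and 46.7 RPM at 14 weeks. miR-122-3p averaged 0.359 RPM in ob/ob and 0.461 RPM in wt at 9 weeks. The erythroid miR-144-5p ranged from 14.7 to 21.7 RPM in ob/ob and 0.522 to 1.49 RPM in wt at 9 weeks, and from 11.6 to 32.4 RPM in ob/ob and 0.331 to 0.974 RPM in wt at 14 weeks. The part of other cell types in the results below was not tested. In such bulk libraries, fewer cells of a type and less miRNA per cell cannot be told apart.

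miR-10a-5p was among the most abundant miRNAs of these cells and made up nearly all of the family. By group mean it ranked 4th of 248 in ob/ob and 5th in wt at 9 weeks, and 3rd in both genotypes at 14 weeks. It supplied 96.8 to 98.9% of the summed RPM of the 7 members. Of the summed RPM of all listed miRNAs it held 8.16 ± 3.16% in ob/ob (SD, n = 3) and 8.42 ± 0.98% in wt (n = 4) at 9 weeks, and 11.4 ± 3.3% in ob/ob and 10.9 ± 1.5% in wt at 14 weeks (n = 4 each). The next guide was miR-100-5p, with group means of 192 to 433 RPM and ranks between 39 and 46. miR-99a-5p and miR-10b-5p lay close to each other at group means of 77.0 to 128 RPM and 65.8 to 101 RPM, and their ranges overlapped in all 4 groups. The passenger arms followed far below, with miR-10a-3p at group means of 1.98 to 5.35 RPM, miR-100-3p at 0.405 to 1.82 RPM and miR-99a-3p at 0.391 to 1.33 RPM. The ranges of miR-100-3p and miR-99a-3p overlapped in all 4 groups.

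**Figure D1:**
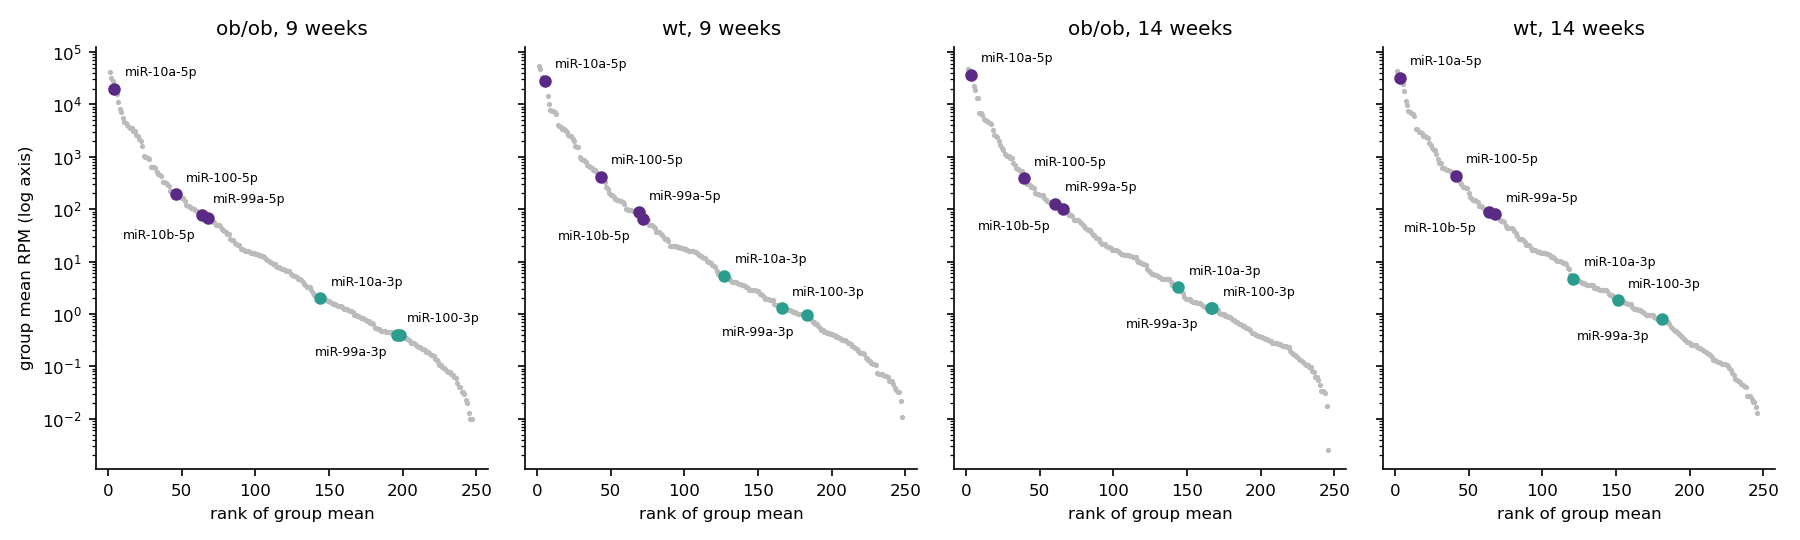
Group mean RPM (log axis) against rank for every listed miRNA above 0 in ob/ob and wt Kupffer cells at 9 and 14 weeks, with the 5p arms of the miR-10 family in purple and the 3p arms in teal. miR-10a-5p sits at rank 3 to 5 in every group, while the other guides lie between ranks 39 and 72 and the 3p arms at rank 121 or lower down.

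At 9 weeks the family's passenger arms miR-10a-3p and miR-100-3p were lower in ob/ob, and none of its guide arms passed the test. miR-10a-3p had 1.98, 1.82 and 2.15 RPM in ob/ob libraries (47 to 73 reads), against 5.36, 5.96, 4.69 and 5.39 RPM in wt libraries (66 to 122 reads). Every ob/ob library lay below every wt library, and the spread within each genotype was small beside the gap. The log2 fold change of RPM + 0.5 was -1.23 ± 0.19 (SE; limma, adjusted p = 0.00485). miR-100-3p had 0.541, 0.232 and 0.442 RPM in ob/ob libraries (6 to 18 reads), against 1.32, 1.34, 1.21 and 1.26 RPM in wt libraries (17 to 30 reads). Its groups did not overlap either, and its log2 fold change was -0.99 ± 0.24 (SE; limma, adjusted p = 0.014). It reached the detection threshold of 1 RPM through the wt libraries alone, and without that threshold its adjusted p was 0.0145.

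These 2 lower members of 7 have to be read against all miRNAs, since most of the profile shifted at 9 weeks. Of 179 miRNAs tested, 67 were called (37.4%), 58 of them lower in ob/ob (32.4%) and 9 higher (5.03%), and the median log2 fold change was -0.51. The median over the 7 members was -0.63. A share of 2 in 7 is near the share of all miRNAs called lower, and so is not particular to the family. Among miRNAs with a wt mean under 10 RPM, where both lie, 13 of 64 were lower (20.3%). By arm, 32 of 87 miRNAs with names ending in 3p were lower (36.8%), and 25 of 91 with names ending in 5p (27.5%). Non-overlapping lower values were found for 74 of the 179 miRNAs (41.3%). After median-ratio rescaling, which scales each library by the median of its miRNAs' ratios to a reference profile of that age and so removes the common shift, 18 of 177 miRNAs were lower (10.2%) and 20 were higher (11.3%), and of the miRNAs with a wt mean under 10 RPM 3 of 62 were lower (4.84%). miR-10a-3p was still lower, with a log2 fold change of -0.80 ± 0.19 (limma, SE; adjusted p = 0.0276), while miR-100-3p was not called at -0.70 ± 0.25 (adjusted p = 0.0769). With the rescaling, the miR-10a-3p call was kept when wt replicate 1 was left out (adjusted p = 0.0441) and lost when any other library was left out (adjusted p of 0.0552 to 0.0691).

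The guide arms at 9 weeks overlapped between the genotypes. miR-10a-5p had 21354, 11518 and 26278 RPM in ob/ob libraries, against 26447, 32057, 24024 and 30653 RPM in wt libraries. ob/ob replicate 2 was the lowest library and ob/ob replicate 3 fell inside the wt range, and limma gave -0.59 ± 0.28 on the log2 scale (SE), which did not pass (adjusted p = 0.128). Its 95% interval ran from -1.24 to 0.05. Without ob/ob replicate 3 it was called lower (adjusted p = 0.0397), and after rescaling its log2 fold change was -0.08 ± 0.30 (adjusted p = 0.865). miR-100-5p had 375, 92.6 and 109 RPM in ob/ob libraries, against 683, 511, 275 and 208 RPM in wt libraries. ob/ob replicate 1 alone reached into the wt range, and the log2 fold change of -1.27 ± 0.61 did not pass (SE; limma, adjusted p = 0.137). Without that library the adjusted p was 0.0286, the lowest of the fits that left out 1 library, which reached 0.35. After rescaling the log2 fold change of miR-100-5p was -0.76 ± 0.58 (SE; limma, adjusted p = 0.374). miR-99a-5p had 88.7, 38.9 and 103 RPM in ob/ob libraries, against 126, 75.7, 65.9 and 78.3 RPM in wt libraries, and the groups overlapped. miR-99a-5p gave a log2 fold change of -0.24 ± 0.37 as deposited and 0.27 ± 0.37 after rescaling (SE; limma, adjusted p = 0.634 and 0.637).

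miR-10b-5p, which carries the seed of miR-10a-5p, lay at close levels in both genotypes at 9 weeks. It had 58.6, 70.7 and 76.5 RPM in ob/ob libraries, against 63.5, 59.2, 71.7 and 69.0 RPM in wt libraries. The groups overlapped fully, and the log2 fold change was 0.05 ± 0.18 (SE; limma, adjusted p = 0.849), with a 95% interval from -0.36 to 0.46. Relative to the common shift it was higher in every ob/ob library than in every wt library, at 0.56 ± 0.19 after rescaling (SE; limma, adjusted p = 0.0723), and this did not pass. Of the 179 miRNAs, 34 (19.0%) lay higher in this non-overlapping way after rescaling. The ob/ob library lowest for miR-10a-5p and miR-99a-5p at 9 weeks, replicate 2, was not low for miR-10b-5p. That library also had the lowest endothelial sum at that age, 18455 RPM.

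**Figure D2:**
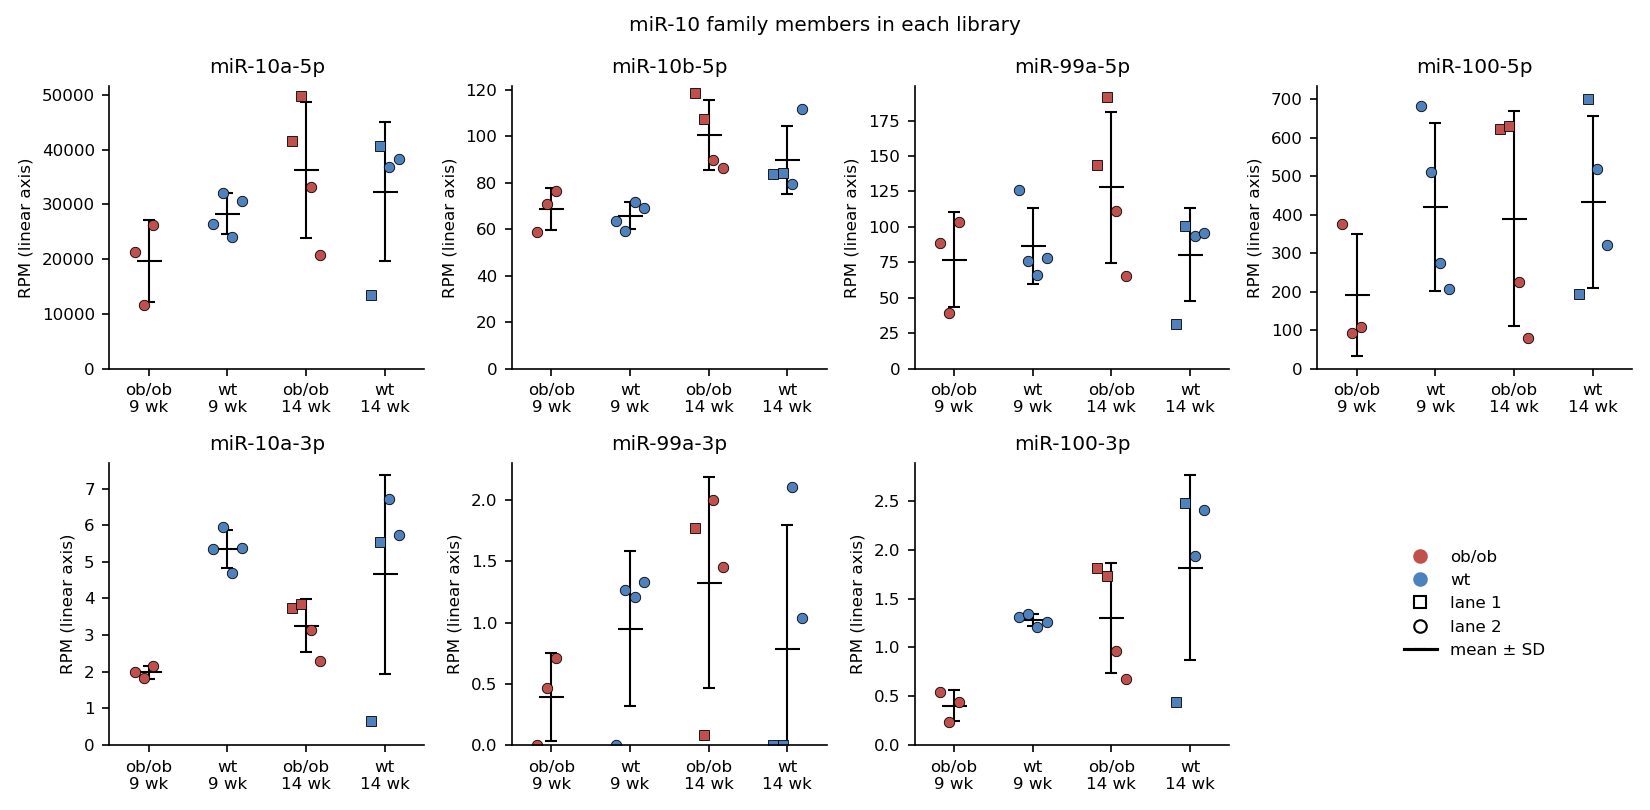
RPM of each member in every library (linear axes), by genotype and age, with squares for lane 1, circles for lane 2, and black bars for the mean ± SD. The 3p arms miR-10a-3p and miR-100-3p separate ob/ob from wt at 9 weeks, while all 5p arms overlap between genotypes at both ages.

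The last member, miR-99a-3p, was low and uneven between libraries. At 9 weeks it had 0, 0.464 and 0.708 RPM in ob/ob libraries, against 0, 1.27, 1.21 and 1.33 RPM in wt libraries. A 0 in ob/ob replicate 1 allows up to 0.0901 RPM and a 0 in wt replicate 1 up to 0.132 RPM, taking 3 reads as the limit for counting error only. The log2 fold change of -0.63 ± 0.54 did not pass (SE; limma, adjusted p = 0.391). Here too the detection threshold of 1 RPM was reached through the wt libraries alone. At 14 weeks miR-99a-3p had 1.77, 0.0816, 2.0 and 1.46 RPM in ob/ob libraries, against 0, 0, 2.11 and 1.04 RPM in wt libraries, and the genotypes overlapped.

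At 14 weeks no member passed the test, against 26 of 171 miRNAs overall (15.2%), of which 6 were lower (3.51%) and 20 higher (11.7%). The median log2 fold change was 0.16 over the members and 0.20 over all miRNAs. After rescaling it was 0 of 7 members against 48 of 168 miRNAs (28.6%). None of the 7 reached an unadjusted p under 0.05 in limma, which 56 of the 171 did as deposited (32.7%) and 63 of the 168 after rescaling (37.5%). miR-10a-5p had 41598, 49719, 33118 and 20748 RPM in ob/ob libraries, against 13356, 40671, 36907 and 38250.3 RPM in wt libraries. The genotypes overlapped, and the lowest value was that of wt replicate 1. The log2 fold change was 0.22 ± 0.41 (SE; limma, adjusted p = 0.774), and -0.16 ± 0.27 without wt replicate 1 (adjusted p = 0.674). Within lane 1 the mean log2 difference, ob/ob minus wt, was 0.96 and within lane 2 it was -0.52. miR-10b-5p had 119, 107, 89.9 and 86.4 RPM in ob/ob libraries, against 83.8, 84.0, 79.4 and 112 RPM in wt libraries, with a log2 fold change of 0.16 ± 0.24 (limma, SE; adjusted p = 0.699). Its difference was 0.43 within lane 1 and -0.10 within lane 2.

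The miR-99a and miR-100 guides overlapped between genotypes as well. miR-99a-5p had 144, 191, 111 and 65.4 RPM in ob/ob libraries, against 31.2, 100.3, 93.8 and 95.8 RPM in wt libraries. Its log2 fold change was 0.70 ± 0.46 with wt replicate 1 (SE; limma, adjusted p = 0.344) and 0.30 ± 0.34 without it (adjusted p = 0.527), and it was 1.56 within lane 1 and -0.15 within lane 2. miR-100-5p had 622, 632, 225 and 80.5 RPM in ob/ob libraries, against 193, 702, 518 and 321 RPM in wt libraries. The ob/ob libraries of lane 1 were high and those of lane 2 low, and the within-lane differences were 0.77 and -1.59. Over both lanes the log2 fold change was -0.41 ± 0.68 (SE; limma, adjusted p = 0.743). As deposited, all 4 guides thus had higher mean values in ob/ob within lane 1, which holds the wt library that stood apart, and lower ones within lane 2. After rescaling miR-10b-5p flipped in lane 1, to -0.09, and the other 3 guides kept their signs there, at 0.45 for miR-10a-5p, 1.04 for miR-99a-5p and 0.25 for miR-100-5p.

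Among the passenger arms at 14 weeks, the outcome of miR-10a-3p turned on that library. Over both lanes, miR-100-3p was called neither with it nor without it. miR-10a-3p had 3.75, 3.86, 3.15 and 2.29 RPM in ob/ob libraries, against 0.661, 5.54, 6.71 and 5.73 RPM in wt libraries. The value of wt replicate 1 rested on 6 reads, and the other 3 wt libraries lay above all 4 ob/ob libraries. With it the log2 fold change was -0.19 ± 0.54 (SE; limma, adjusted p = 0.854), and without it -0.81 ± 0.21 (adjusted p = 0.0281) or, rescaled, -0.80 ± 0.18 (adjusted p = 0.0139). Without that library 21 of 177 miRNAs were lower as deposited (11.9%) and 25 of 175 after rescaling (14.3%). Within lane 1 the difference was 0.70, and within lane 2 alone it was -1.07 (limma, adjusted p = 0.0433). miR-100-3p had 1.82, 1.73, 0.966 and 0.679 RPM in ob/ob libraries, against 0.441, 2.49, 1.94 and 2.41 RPM in wt libraries. Its log2 fold change was -0.29 ± 0.41 with wt replicate 1 (SE; limma, adjusted p = 0.693) and -0.68 ± 0.28 without it (adjusted p = 0.106). The value within lane 2 alone was -1.02 (limma, adjusted p = 0.0409), against 0.44 within lane 1. In lane 2 miR-100-3p reached the detection threshold of 1 RPM through the wt libraries alone. The ob/ob libraries of that lane lay under it, at 0.966 and 0.679 RPM. In lane 2 alone these 2 members were among 27 of 179 miRNAs called lower (15.1%).

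Whether the ob/ob difference itself changed between 9 and 14 weeks was asked with an interaction term over all 15 libraries. None of 187 miRNAs passed (0.0%), although 48 had an unadjusted p under 0.05 in limma (25.7%), and none of the 7 members was among those 48. The median interaction over all miRNAs was 0.68 as deposited and -0.02 after rescaling. As deposited, the members' interactions ran from 0.11 ± 0.27 for miR-10b-5p to 1.3 ± 0.92 for miR-99a-3p on the log2 scale (SE). For miR-10a-3p it was 1.05 ± 0.65 (limma, adjusted p = 0.311), and without wt replicate 1 of 14 weeks it was 0.43 ± 0.26 (adjusted p = 0.341). After rescaling it was 0.47 ± 0.50 with that library and -0.0026 ± 0.22 without it (SE; limma, adjusted p = 0.695 and 0.996). The 95% intervals without that library, -0.12 to 0.98 as deposited and -0.47 to 0.47 rescaled, do not show that the difference was the same at both ages.

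**Figure D3:**
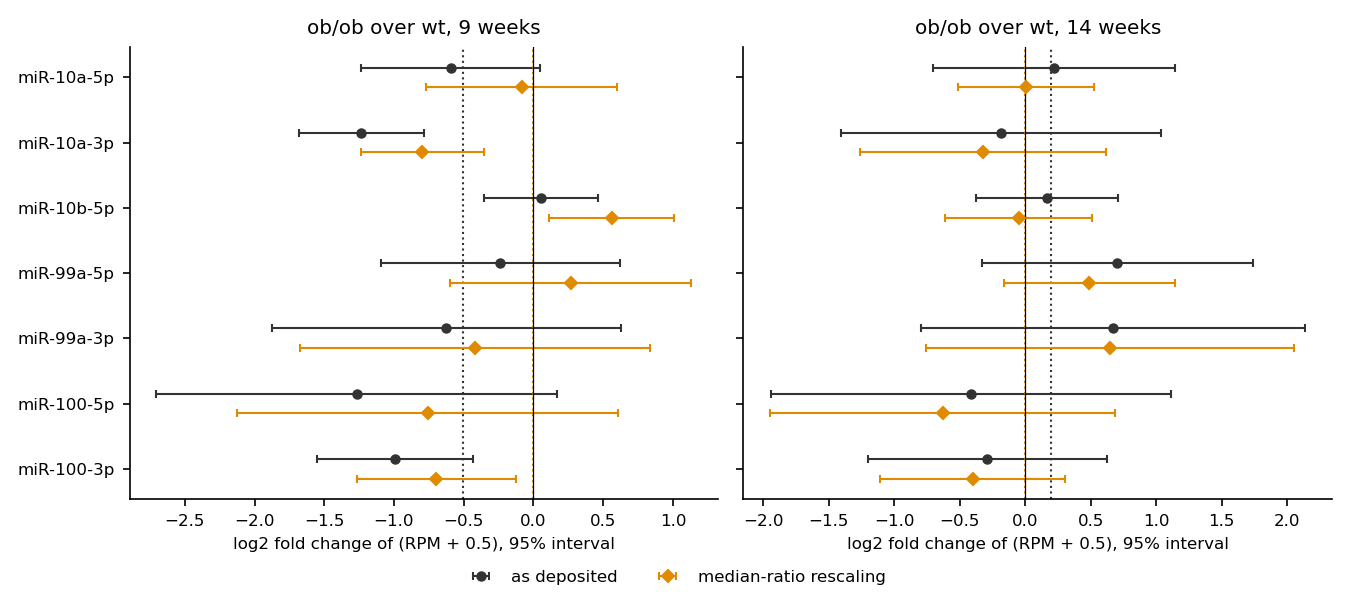
Log2 fold change of RPM + 0.5, ob/ob over wt, for each member at 9 weeks (left) and 14 weeks (right), as deposited (dark circles) and after median-ratio rescaling (orange diamonds), with 95% intervals from limma and dotted lines at the median of all tested miRNAs. At 9 weeks miR-10a-3p lies below that median in both fits and miR-10b-5p above it, and at 14 weeks every interval spans 0.

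Ratios within a library do not depend on how that library was scaled, apart from the 0.5 RPM added to each value before the tests, and they were used to compare the arms of a hairpin and the members of a pair. The 5p arm of miR-10a exceeded its 3p arm by 4937 to 20211 times. At 9 weeks the ratio of miR-10a-5p to miR-10a-3p was 10773, 6344 and 12203 in ob/ob libraries, against 4937, 5379, 5122 and 5691 in wt libraries. Every ob/ob ratio was above every wt ratio. How many other hairpins separated in this way was not computed at either age. On the tested log2 scale, with 0.5 RPM added to each arm, the genotypes overlapped, with 12.28 in ob/ob replicate 2 and 12.35 in wt replicate 4, and the difference was 0.64 (exact permutation test, two-sided, p = 0.0571, adjusted p = 0.143 over 5 tested ratios, smallest possible p = 0.0286). With that smallest p and adjustment over 5 ratios, no ratio could pass alone. At 14 weeks the ratio was 11105, 12897, 10506 and 9058 in ob/ob libraries, against 20211, 7345, 5502 and 6671 in wt libraries. The value of 20211 belongs to wt replicate 1 with its 6 reads of miR-10a-3p, and the ratio was not tested with that library because the arm was under 1 RPM there. Without it, all 4 ob/ob ratios were above the 3 wt ratios, with a log2 difference of 0.64 (exact permutation test, p = 0.0571, adjusted p = 0.171 with this ratio added to the 5).

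For miR-100 the arms gave no such separation. The ratio of miR-100-5p to miR-100-3p was 246 to 694 in ob/ob and 165 to 518 in wt libraries at 9 weeks, and 118 to 364 in ob/ob and 133 to 438 in wt libraries at 14 weeks, and it was not tested since the 3p arm fell under 1 RPM. For miR-99a, among libraries with both arms above 0, the 5p arm exceeded the 3p arm by 44.9 to 2347 times in ob/ob and by 44.5 to 92.2 times in wt, the highest value resting on 8 reads of the 3p arm in ob/ob replicate 2 at 14 weeks.

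Between the nearly identical guides, miR-100-5p exceeded miR-99a-5p in all 15 libraries, and by less in ob/ob on average. At 9 weeks the ratio of miR-100-5p to miR-99a-5p was 4.23, 2.38 and 1.05 in ob/ob libraries, against 5.42, 6.75, 4.17 and 2.66 in wt libraries. At 14 weeks it was 4.33, 3.3, 2.03 and 1.23 in ob/ob libraries, against 6.19, 7.0, 5.52 and 3.35 in wt libraries. The genotypes overlapped at both ages. The log2 difference was -1.03 at 9 weeks (exact permutation test, p = 0.143, adjusted p = 0.179) and -1.12 at 14 weeks (p = 0.0571, adjusted p = 0.143), so neither passed. Within lanes at 14 weeks it was -0.79 in lane 1 and -1.44 in lane 2, both computed without a test.

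miR-10b-5p amounted to 0.185 to 0.628% of miR-10a-5p. At 9 weeks that share was 0.275, 0.614 and 0.291% in ob/ob libraries, against 0.240, 0.185, 0.298 and 0.225% in wt libraries. The genotypes overlapped, and the log2 difference of 0.65 did not pass (exact permutation test, p = 0.114, adjusted p = 0.179). At 14 weeks it was 0.285, 0.216, 0.271 and 0.416% in ob/ob libraries, against 0.628, 0.207, 0.215 and 0.292% in wt libraries. The log2 difference was -0.06 (exact permutation test, p = 0.857), with -0.54 within lane 1 and 0.42 within lane 2. The highest shares, 0.614 and 0.628%, belonged to the libraries with the lowest miR-10a-5p.

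**Figure D4:**
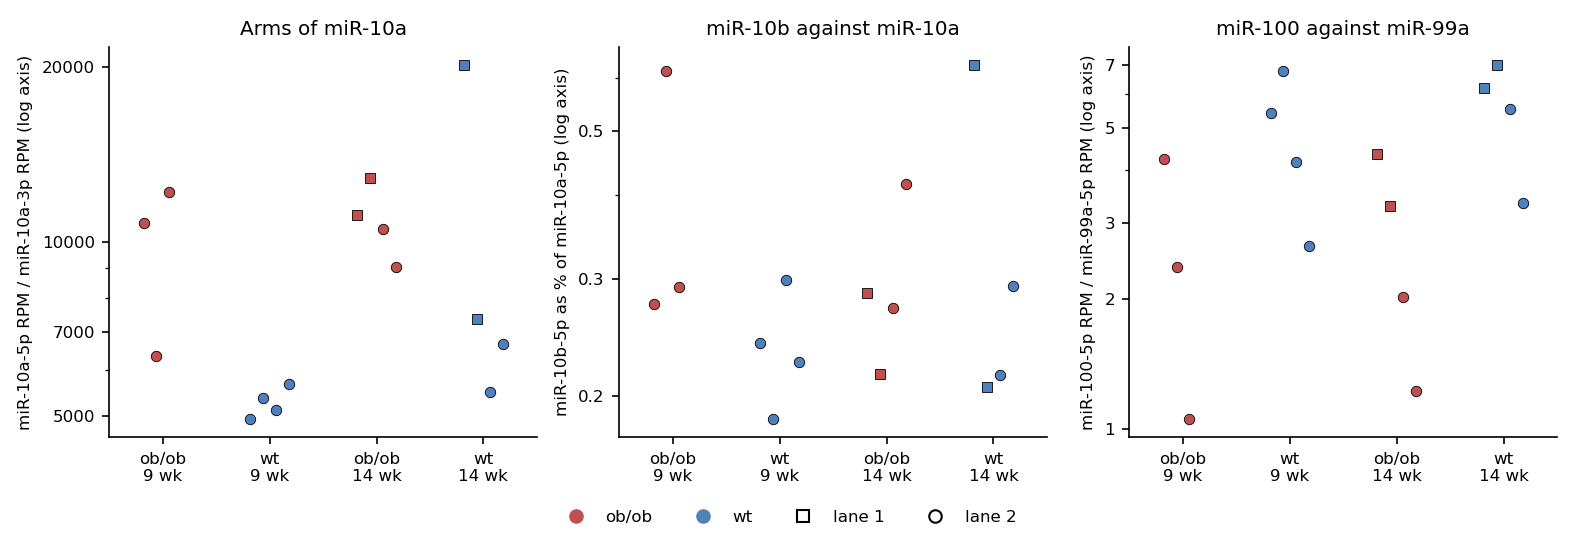
Ratios within each library on log axes for miR-10a-5p over miR-10a-3p, miR-10b-5p as a percentage of miR-10a-5p, and miR-100-5p over miR-99a-5p, with squares for lane 1 and circles for lane 2. The arm ratio of miR-10a is higher in all ob/ob libraries than in wt libraries of the same age except wt replicate 1 at 14 weeks, which stands at 20211.

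The guides also differed in which other miRNAs they followed from library to library. Likeness was measured as Pearson's r of rescaled log2(RPM + 0.5) over 15 libraries, each set against the mean of its age, among 105 miRNAs with at least 10 RPM on average and no 0. These correlations describe libraries that share a genotype, a lane or a depth, and carry no p. The closest to miR-10a-5p were miR-23b-3p (r = 0.89, Spearman's rho = 0.77) and miR-126a-5p (r = 0.84, rho = 0.77), of which miR-126a-5p is an endothelial marker. Next came miR-125b-2-3p (r = 0.83), miR-497a-5p (r = 0.79) and miR-195a-5p (r = 0.78). Without the libraries farthest out for miR-10a-5p, ob/ob replicate 2 at 9 weeks and ob/ob replicate 4 at 14 weeks, r was 0.80 for miR-23b-3p and 0.82 for miR-126a-5p. With miR-126a-5p, r was 0.99 at 9 weeks and 0.70 at 14 weeks.

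miR-100-5p lay closest to miR-322-3p (r = 0.93, rho = 0.90), at 0.99 within 9 weeks and 0.89 within 14 weeks, and 0.88 without its 2 farthest libraries. It was followed by miR-125a-5p (r = 0.77), miR-350-5p (r = 0.77), miR-125b-5p (r = 0.75) and miR-149-5p (r = 0.72). miR-125b-5p can come from the cluster that holds Mir100, and also from that of Mir99a. miR-99a-5p lay closest to miR-215-5p (r = 0.88), miR-23b-3p (r = 0.84), miR-335-3p (r = 0.83), miR-450b-5p (r = 0.79) and miR-27b-3p (r = 0.78). miR-10b-5p lay closest to the hepatocyte marker miR-122-5p (r = 0.82) and to miR-130a-3p (r = 0.81), miR-191-5p (r = 0.80), miR-184-3p (r = 0.76) and miR-146a-5p (r = 0.71). Of these, miR-130a-3p alone stayed close as deposited (r = 0.71). The values as deposited were 0.27 for miR-122-5p, 0.27 for miR-191-5p, 0.23 for miR-184-3p and 0.39 for miR-146a-5p, so these 4 depended on the rescaling.

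In neither pair of guides with a common seed was 1 guide among the 5 closest miRNAs of the other. The r between miR-10a-5p and miR-10b-5p was -0.17 (0.28 as deposited), and between miR-99a-5p and miR-100-5p it was 0.39 (0.60 as deposited). The latter was 0.57 without the 2 libraries farthest out for miR-99a-5p, and 0.12 without the 2 farthest out for miR-100-5p. Across the seeds, miR-10a-5p and miR-99a-5p had an r of 0.77, placing miR-99a-5p 8th of 105 for miR-10a-5p. miR-10a-5p and miR-100-5p had an r of 0.49, which was -0.03 without the 2 libraries farthest out for miR-10a-5p.

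**Figure D5:**
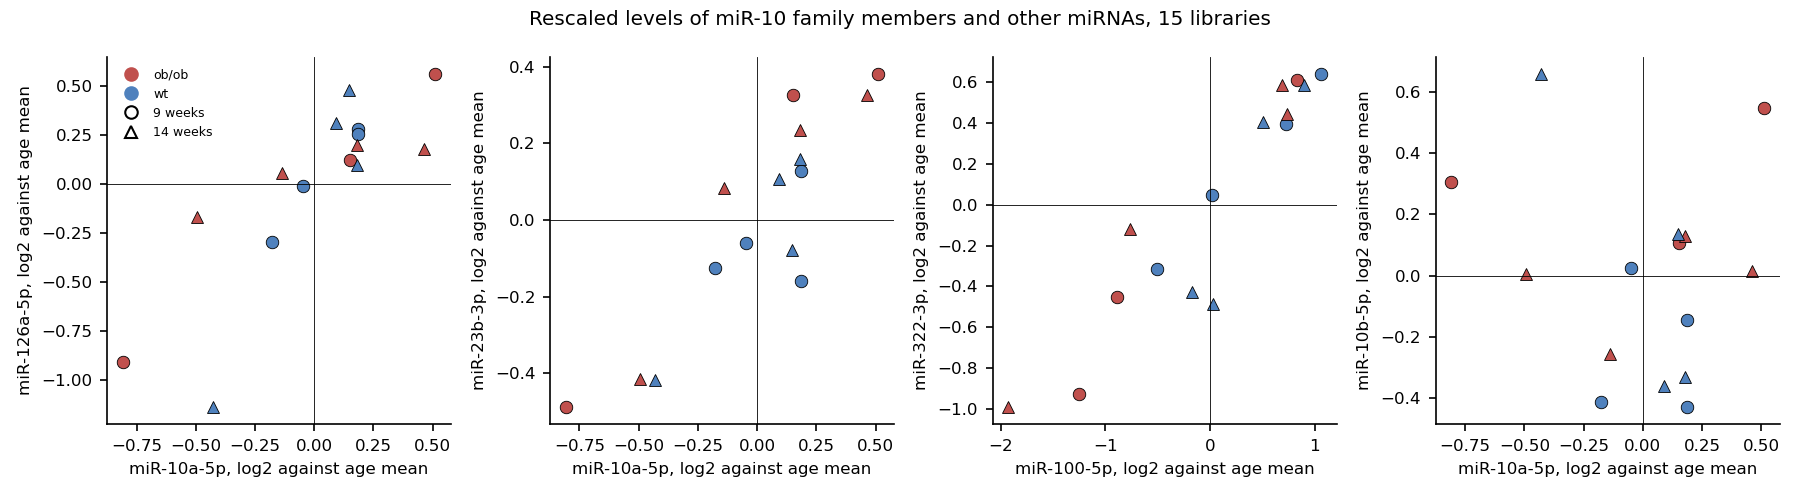
Rescaled log2 levels set against the mean of the age, from left to right for miR-126a-5p and miR-23b-3p against miR-10a-5p, for miR-322-3p against miR-100-5p and for miR-10b-5p against miR-10a-5p, with ob/ob in red, wt in blue, circles for 9 weeks and triangles for 14 weeks. The pairs of the first 3 panels rise together (r of 0.84 for miR-126a-5p, 0.89 for miR-23b-3p and 0.93 for miR-322-3p over 15 libraries), and miR-10b-5p shows no such relation to miR-10a-5p (r = -0.17).

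The relatives and cluster mates of the family were taken by name as all listed arms of let-7a, let-7c, let-7e, miR-125a and miR-125b, which gave 12 miRNAs, 10 of them tested at each age. Of these names, let-7a, let-7c and miR-125b have a gene near Mir99a or Mir100, whereas let-7e and miR-125a have none there. The let-7 miRNAs act against growth genes such as Ras and Hmga2, and miR-125 has the worm lin-4 seed. At 9 weeks 7 of the 10 were lower in ob/ob and none was higher, against 58 of all 179 miRNAs lower (32.4%), with a median log2 fold change of -0.98 against -0.51 for all miRNAs. After rescaling 3 of 10 were lower, let-7e-3p, let-7e-5p and miR-125a-5p, against 18 of 177 miRNAs (10.2%), with a median of -0.49. None of these comes from a gene near Mir99a or Mir100. At 14 weeks let-7e-3p alone was lower as deposited (log2 fold change -1.34 ± 0.37, limma, adjusted p = 0.0352), against 6 of 171 miRNAs (3.51%), and after rescaling 6 of the 10 were lower, against 22 of 168 (13.1%). Those 6 were let-7a-5p, let-7c-5p, let-7e-3p, let-7e-5p, miR-125a-5p and miR-125b-5p. miR-125b-5p averaged 81.3 ± 23.5 RPM in ob/ob (SD, n = 3) and 186 ± 32 RPM in wt (n = 4) at 9 weeks, a log2 fold change of -1.21 ± 0.24 (limma, SE; adjusted p = 0.00698). After rescaling it was -0.70 ± 0.23 (adjusted p = 0.0628). At 14 weeks miR-125b-5p averaged 118 ± 65 RPM in ob/ob and 201 ± 73 RPM in wt (n = 4 each), which passed after rescaling (log2 fold change -1.06 ± 0.34, limma, adjusted p = 0.0457) and not as deposited (adjusted p = 0.265). let-7c-5p, whose copy beside Mir99a is 1 of its sources, averaged 3492 ± 775 RPM in ob/ob and 7314 ± 985 RPM in wt at 9 weeks (log2 fold change -1.08 ± 0.20, limma, adjusted p = 0.00538; rescaled -0.57 ± 0.18, adjusted p = 0.0553). Of the 4 arms that only the clusters of Mir100 and Mir99a can give, miR-125b-1-3p and miR-125b-2-3p were called at neither age, with log2 fold changes of -0.53 ± 0.34 and -0.46 ± 0.31 at 9 weeks (limma, adjusted p = 0.246 and 0.261). The other 2, let-7c-1-3p and let-7a-2-3p, lay under the detection threshold at both ages. let-7c-1-3p, from the Mir99a cluster, had 0.116 to 0.324 RPM in ob/ob (3 to 11 reads) and 0.527 to 1.14 RPM in wt (9 to 16 reads) at 9 weeks, without overlap. With no detection threshold it was called lower (log2 fold change -0.86 ± 0.26, limma, adjusted p = 0.0386), as were 61 of all 248 miRNAs (24.6%), and at 14 weeks it was not called (-0.09 ± 0.40, adjusted p = 0.876). let-7a-2-3p, from the Mir100 cluster, was at 0.0601 to 0.177 RPM in ob/ob and 0 to 0.372 RPM in wt at 9 weeks and was called at neither age (adjusted p = 0.634 and 0.81). Whether any relative differed from the member of its cluster was not tested.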

How the data were processed

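A column kit was used to isolate small RNA, and the TruSeq Small RNA kit and a HiSeq instrument to sequence it, per the labels' protocols. Software named in the submitters' processing notes is bcl2fastq and cutadapt, and builds named there are GRCm38.p5 and mm10. No aligner, counting rule or denominator is given in the sources used here. The authors deposited 1 table of RPM per age with 248 miRNAs in each, the unit being inferred from the values. In each library 185 to 206 values up to 20000 reads were whole multiples of 1 step within 0.1 reads, which gave the depth and the read numbers. No count model was used.

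limma 3.58.1 (R 4.3.3, trended and robust empirical Bayes) was fitted per age on log2(RPM + 0.5), which understates the change of low miRNAs, over miRNAs with at least 1 RPM in at least 3 libraries at 9 weeks and 4 at 14 weeks, the size of the smaller group. The interaction used all 15 libraries and 3 libraries for that threshold. Benjamini-Hochberg adjustment ran over all miRNAs tested, with a threshold of 0.05. The steps were tested on simulated data. Log2 ratios were compared by two-sided exact permutation tests, adjusted over 5 ratios. Where wt replicate 1 of 14 weeks was left out, the miR-10a arm ratio at 14 weeks was added to these. Median-ratio rescaling used miRNAs with no 0 and at least 5 RPM on average. Other settings were pseudocounts of 0.1 and 1, no detection threshold, 5 RPM, rescaling to the listed sum, a GC correction, lane, a replicate block and leaving out each library. Rescaling combined with a left-out library or with lane was added after seeing the data. The tables of the 2 ages were not compared in level by a test. Members are all rows the names select, and the 5 closest miRNAs per guide were named. Members and lists were chosen with earlier results of these data known. Sequences are from RefSeq, and positions of neighbouring genes from GENCODE. Some relatives and marker miRNAs were not analysed here.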

Additional observations from a re-analysis of the deposited data

Results flagged for a closer look

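In 4 of 33 groups of 4 libraries checked, 1 library lay far from the other 3 by Dixon's test. Chance alone gives about 1 in 20. Among wt libraries at 14 weeks, miR-10a-5p was 13356 RPM in replicate 1, against 36907 to 40671 RPM in the others, and miR-99a-5p was 31.2 RPM in replicate 1, against 93.8 to 100.3 RPM. Both values belong to the library with the lowest depth, 9.08 M reads (M, 1000000), and the lowest sum of listed miRNAs. miR-10b-5p was 112 RPM in wt replicate 4 at 14 weeks, against 79.4 to 84.0 RPM in the other wt libraries. miR-99a-3p was 0 in wt replicate 1 at 9 weeks, against 1.21 to 1.33 RPM in the other wt libraries, although that library had the highest miR-99a-5p of its group, 126 RPM.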

How the results depend on the processing

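At 9 weeks the 2 members called as deposited stayed 2 with either pseudocount, with no detection threshold and with the GC correction. There was 1 (miR-10a-3p) with the 5 RPM threshold, which leaves out miR-100-3p, with median-ratio rescaling and with rescaling to the listed sum. The replicate block left 1 (miR-100-5p, log2 fold change -1.55, adjusted p = 0.0268), with adjusted p = 0.0693 for miR-10a-3p and 0.0595 for miR-100-3p. With the block, 32 of 179 miRNAs were called, against 67 without it. Samples with the same number deviated together with r of 0.28, 0.14 and -0.14 at 9 weeks and -0.24, 0.10, 0.20 and 0.09 at 14 weeks. Not every library correlated best with its own number. These few values do not show that the numbers pair the samples, and they cannot exclude it. Leaving out 1 library, as deposited or rescaled, gave 0 to 3 members called at 9 weeks and 0 to 1 at 14 weeks, and lane 2 alone gave 2 at 14 weeks. The number of all miRNAs called at 9 weeks fell to 38 of 177 with rescaling, 20 of them higher, and to 35 with the listed sum, and at 14 weeks it was 48 with either.

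Several uncalled differences changed sign, and the cause was not tested. At 9 weeks miR-99a-5p was 0.27 with rescaling, 0.23 with the listed sum and 0.38 with the GC correction. At 14 weeks miR-10b-5p was -0.052 with rescaling, also with lane added, -0.0323 with the listed sum, -0.15 with the GC correction and -0.10 in lane 2. miR-10a-5p was -0.0926 with the GC correction and -0.52 in lane 2, where miR-99a-5p was -0.15. In lane 1 miR-10a-3p was 0.70, miR-100-5p 0.77 and miR-100-3p 0.44. The interaction of miR-10b-5p was -0.61 with rescaling, -0.55 with the listed sum and -0.64 with the GC correction. Over left-out libraries, as deposited or rescaled, the log2 fold changes at 9 weeks ran from -0.84 to 0.32 for miR-10a-5p, -0.028 to 0.67 for miR-10b-5p, -0.51 to 0.76 for miR-99a-5p and -1.08 to 0.00899 for miR-99a-3p. At 14 weeks they ran from -0.16 to 0.47 for miR-10a-5p, -0.81 to 0.0732 for miR-10a-3p, -0.19 to 0.27 for miR-10b-5p and -0.99 to 0.20 for miR-100-5p. The log2 ratio of miR-10b-5p to miR-10a-5p at 14 weeks ran from -0.24 to 0.30.

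The 5 tested ratios passed under none of the settings run, and members called for the difference between ages stayed at 0. The values of the 3p arms rest on 0 to 378 reads. Those of miR-99a-3p did not follow depth. At 14 weeks, ob/ob replicate 2 had 8 of its reads among 98.1 M, and ob/ob replicate 3 had 118 among 59.0 M. Intervals cover counting error or library spread only.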
